A study of Mus musculus with 46 samples.

Results

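Macrophage receptors and lectins were followed in mouse lung as 8 genes: Marco, Mgl2, Msr1, Mrc1, Chil3, Cd68, Adgre1 and Csf1r. The members were chosen by name, with earlier results of these data known. They were read from every probe set that the platform annotation gives to their symbols, which found 12 of the 36701 probe sets on the arrays, which came in 3 designs, here A, B and C. Of these, 11 lie on type A, 1 (Mgl2) lies on type C and none on type B. A probe set was tested when it was brighter than the 40th percentile of its array type on at least 2 arrays, which 9 of the 12 were, so that each of the 8 genes kept 1 tested probe set or more.

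The study compared wild type mice with mice whose Nrf2 gene was mutated. Lungs were taken at 0 h, without oxygen treatment, and after 24, 48 and 72 h in 100% oxygen, which was given to injure the lung. This makes 8 groups of 1 genotype and 1 time, with replicates 1a and 1b. The labels name no strain, age or allele, and do not say whether 1a and 1b were separate animals, so the p-values measure only the spread between these samples, which may be technical. On type A, wild type at 24 h and the mutant at 0 h each had 1 array, replicate 1b.

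Macrophages of the lung lie in its air spaces and in its tissue, where they take up debris and microbes. Marco and Msr1 are class A scavenger receptors that bind modified lipoproteins, particles and bacteria. Mrc1, the mannose receptor, and Mgl2, a lectin for galactose and N-acetylgalactosamine, recognise sugars. Chil3, a chitinase-like lectin that is secreted, is abundant in alveolar macrophages. Cd68 is a membrane protein of late endosomes and lysosomes, Adgre1 encodes the F4/80 surface antigen, and Csf1r is the receptor for the growth factor on which most macrophages depend. NRF2, the protein that Nfe2l2 (Nrf2) encodes, is a transcription factor that turns on antioxidant genes.

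The 46 arrays were scaled by the authors within each array type, and their number limits the precision. Nfe2l2 itself, measured on type A, lay between 302.5 and 448.4 intensity units on the 7 mutant arrays and between 2428 and 4488 on the 7 wild type arrays. The mutant arrays at 0 h stood apart on all array types. Their mean correlation with the other arrays was 0.827 to 0.858, against 0.879 to 0.940 for the rest. Their ratio of 3′ to 5′ signal for Gapdh was 1.67 to 2.26, against 0.858 to 1.54. The summed signal of 7 squamous epithelium markers was 37090 on the mutant 0 h array of type A and 1775 to 3318 on the other 13. They were deposited with 6 decimals, as were 2 wild type arrays at 24 h, and the other 39 arrays with 16 or 17. The called differences from the mutant at 0 h are therefore also given against wild type at 0 h, and the part that the state of these arrays plays in those comparisons was not tested. In whole lung, fewer cells of a type and less RNA per cell cannot be told apart.

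Promoters of 3 of the genes are shown as the 250 bases before the annotated start, to place Marco, which was lower in the mutant at most times, beside Cd68, which rose in the mutant, and Mrc1, which gave no called change. The windows come from a table of RefSeq promoters on GRCm38.p6 in which 5 of the 8 members were matched, and run 5′ to 3′ on the strand of the gene. They are chr1:120505025-120505274, minus strand, for Marco, chr11:69666171-69666420, minus strand, for Cd68 and chr2:14229164-14229413, plus strand, for Mrc1. Capitals mark a match to one of 3 motifs searched on both strands.
Marco: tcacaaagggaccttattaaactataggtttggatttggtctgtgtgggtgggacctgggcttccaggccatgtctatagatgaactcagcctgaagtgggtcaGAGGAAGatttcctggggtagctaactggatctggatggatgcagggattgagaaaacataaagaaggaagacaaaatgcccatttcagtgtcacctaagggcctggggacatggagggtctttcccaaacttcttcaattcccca
Cd68: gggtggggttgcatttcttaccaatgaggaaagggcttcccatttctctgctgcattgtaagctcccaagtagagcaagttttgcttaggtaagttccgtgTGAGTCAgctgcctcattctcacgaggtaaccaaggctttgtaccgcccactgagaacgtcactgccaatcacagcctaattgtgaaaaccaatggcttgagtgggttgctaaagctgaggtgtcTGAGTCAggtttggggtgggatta
Mrc1: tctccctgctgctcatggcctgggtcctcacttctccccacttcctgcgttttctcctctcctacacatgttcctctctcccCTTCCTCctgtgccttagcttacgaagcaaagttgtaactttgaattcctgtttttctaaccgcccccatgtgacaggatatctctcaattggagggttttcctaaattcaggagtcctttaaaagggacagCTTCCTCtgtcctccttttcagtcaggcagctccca
The motifs were the antioxidant response element, searched as TGACNNNGC, the AP-1 site TGANTCA and a PU.1 motif, searched as GAGGAAG. The letters of the antioxidant response element and the AP-1 site can overlap. The 3 motifs occur in 10.2%, 6.75% and 10.6% of 32851 windows of the same length. The Marco window holds GAGGAAG, and the Mrc1 window holds it at each of 2 places on the other strand. The Cd68 and Mgl2 windows hold the shorter GAGGAA, followed by another letter. The Cd68 window holds the AP-1 letters TGAGTCA at 2 places. The windows of Chil3 and Mgl2 matched none of the 3 motifs as searched, and no member window held the letters TGACNNNGC. In the Cd68 window TGAGTCAGC, at the first AP-1 match, differs from these letters only in the G after TGA. The Mgl2 window, chr11:70130107-70130356, plus strand, runs past the gene start given below, 70130125. A match is a string of letters here, not a measured binding site.

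Marco rose about 3-fold in wild type lung within 24 h of oxygen and stayed there, and was lower in the mutant at 0, 48 and 72 h. Its intensity in wild type was 262.2 and 255.7 at 0 h, 1074 on the 1 array at 24 h, 1105 and 853.1 at 48 h, and 1020 and 1126 at 72 h. In the mutant it was 33.38 at 0 h, 424.8 and 436.9 at 24 h, 282 and 226.1 at 48 h, and 323.8 and 375 at 72 h. All mutant arrays under oxygen lay below all wild type arrays under oxygen. Of the 6 mutant arrays under oxygen, 5 lay above both untreated wild type arrays and 1 lay below both.

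The rise in wild type was 1.77 ± 0.21 (SE) on the log2 scale at 24 h (limma, adjusted p = 0.00335), 1.64 ± 0.17 at 48 h (adjusted p = 0.000597) and 1.77 ± 0.17 at 72 h (adjusted p = 0.000236). The 24 h value rests on 1 array. The steps between 24, 48 and 72 h in wild type were not called; that from 24 to 72 h was -0.003 ± 0.21. The gene (17167) lies at chr1:120474538-120505024 in GRCm38.p6, the build of all positions given here.

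Between genotypes, Marco was lower in the mutant in oxygen by 1.18 ± 0.21 (24 h), 1.67 ± 0.17 (48 h) and 1.43 ± 0.17 (72 h) on the log2 scale. These passed the limma test at 48 h (adjusted p = 0.002) and 72 h (adjusted p = 0.00355), and missed it at 24 h (adjusted p = 0.0714). In untreated lung Marco was also called lower (-1.60 ± 0.21, adjusted p = 0.00427), but this rests on the 1 mutant array that stood apart, at 33.38, and its size is set largely by the 78.1 added before the log2 was taken. Averaged over the 3 times in oxygen, the mutant level was 2.69-fold lower, or -1.43 ± 0.11 (adjusted p = 0.000141). Fitted on the arrays of 1 time alone, the differences at 48 h (adjusted p = 0.0836) and 72 h (adjusted p = 0.0958) were no longer called. Leaving out single replicates moved the mean difference between -1.48 and -1.37 and kept its call each time; the lone wild type array at 24 h could not be left out.

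Whether Marco rose in the mutant depends on the untreated level used. Against the mutant at 0 h it was higher by 2.19 at 24 h, 1.57 at 48 h and 1.94 at 72 h on the log2 scale (limma, adjusted p = 0.000122, 0.000957 and 0.000181). That untreated level is the same dim array, below the 194.7 that a value on type A needs to count as bright, so the sizes depend on the value added. Against wild type at 0 h the mutant differed by 0.60 ± 0.17 at 24 h (adjusted p = 0.0536), -0.03 ± 0.17 at 48 h and 0.34 ± 0.17 at 72 h (adjusted p = 0.249), none of which was called.

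**Figure D1:**
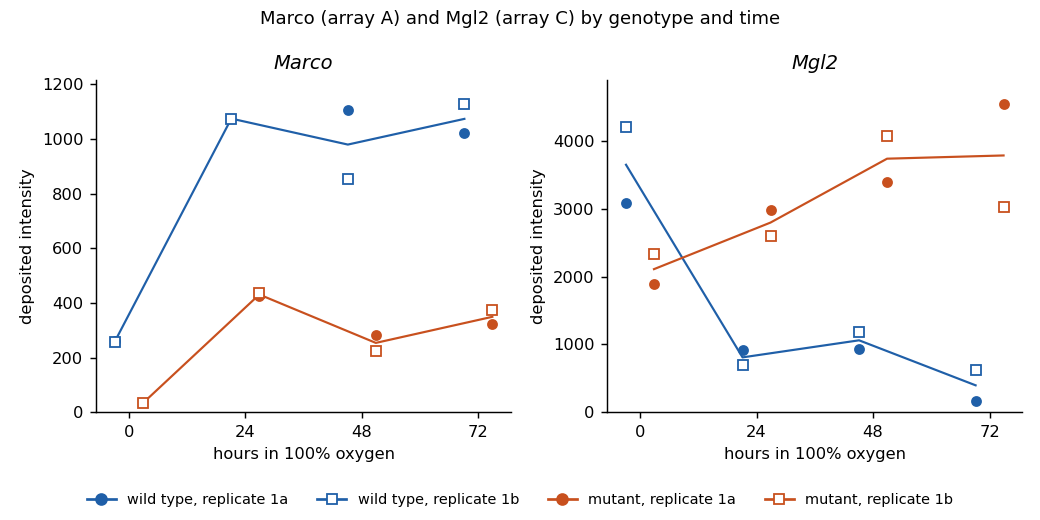
Deposited intensity of Marco (left, array type A) and Mgl2 (right, array type C) against hours in 100% oxygen, with 1 point per array (filled circle 1a, open square 1b), blue for wild type and orange for the Nrf2 mutant; lines join group means. Wild type Marco sits between 853.1 and 1126 under oxygen, above every mutant array, and wild type Mgl2 between 169 and 1190, below every mutant array.

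Mgl2 moved the other way. It fell in wild type lung under oxygen, and no change of it passed the test in the mutant. In wild type its intensity was 3088 and 4207 at 0 h, 922.8 and 697.9 at 24 h, 933.4 and 1190 at 48 h, and 169 and 628.4 at 72 h. Mutant arrays read 1890 and 2330 at 0 h, 2987 and 2605 at 24 h, 3396 and 4078 at 48 h, and 4537 and 3032 at 72 h. No wild type array under oxygen reached the level of any mutant array, while at 0 h the wild type arrays were the brighter ones.

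The fall in wild type was -2.03 ± 0.41 at 24 h (limma, adjusted p = 0.0299), -1.68 ± 0.41 at 48 h (adjusted p = 0.0303) and -3.05 ± 0.41 at 72 h (adjusted p = 0.00093) on the log2 scale. One array at 72 h was below the 211.1 that counts as bright on type C. The calls at 24 and 48 h were lost when any one of the arrays compared was left out (adjusted p from 0.0756 to 0.193), and the call at 72 h was kept. In the mutant, against its own 0 h arrays, the differences were 0.39 ± 0.41, 0.80 ± 0.41 and 0.79 ± 0.41 at 24, 48 and 72 h, none called, with a 95% interval at 72 h from -0.09 to 1.68. Against wild type at 0 h the mutant differed by -0.36, 0.04 and 0.04 at 24, 48 and 72 h, none called, so that the sign at 24 h turned.

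Between genotypes, Mgl2 was higher in the mutant by 3.09 ± 0.41 on the log2 scale at 72 h (limma, adjusted p = 0.00355), and by 2.38 to 3.80 with 1 array left out, the ends being without wild type 72 h replicates 1a and 1b. The differences of 1.67 at 24 h (adjusted p = 0.154) and 1.72 at 48 h (adjusted p = 0.119) did not pass alone. Averaged over the 3 times in oxygen the mutant was 4.47-fold higher, or 2.16 ± 0.23 (adjusted p = 0.000624), and single replicates left out moved this between 1.92 and 2.40 with the call kept. The response itself differed between genotypes at 72 h by 3.84 ± 0.57 (adjusted p = 0.00825), and by 3.13 to 4.55 without the same 2 arrays in turn, with the call kept. On the arrays of the groups compared alone, neither the difference at 72 h (adjusted p = 0.213) nor that in response (adjusted p = 0.0945) was called. The gene (216864) lies at chr11:70130125-70137542.

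Clec10a, the closest relative of Mgl2 among mouse lectins, was lower in the mutant under oxygen. On array type B its intensity was 1763 to 1877 in wild type at 0 h and 2323 to 2737 at 72 h, and in the mutant 1139 to 1534 at 24 h and 1816 to 1877 at 72 h. Its mean difference over the 3 times in oxygen was -0.52 ± 0.10 (limma, adjusted p = 0.02), the opposite sign to Mgl2. The array types were scaled separately, so the levels of the 2 genes are not compared. Whether Clec10a RNA also binds the Mgl2 probe set was not tested.

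Chil3 rose in wild type by 48 h and in both genotypes by 72 h. Wild type arrays read 10180 and 10600 at 0 h, 14740 at 24 h, 15870 and 16880 at 48 h, and 16200 and 19500 at 72 h. Its mutant intensity was 10670 at 0 h, 11820 and 12630 at 24 h, 13560 and 12490 at 48 h, and 17350 and 19430 at 72 h. Both mutant arrays at 24 and at 48 h were below the wild type arrays of the same time, and at 72 h the genotypes overlapped.

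On the log2 scale Chil3 was higher than at 0 h by 0.65 ± 0.16 in wild type at 48 h (limma, adjusted p = 0.0365), by 0.77 ± 0.16 in wild type at 72 h (adjusted p = 0.015) and by 0.78 ± 0.19 in the mutant at 72 h (adjusted p = 0.0162). The mutant value was 0.82 ± 0.16 against wild type at 0 h (adjusted p = 0.00758). The genotype differences of -0.27 at 24 h, -0.33 at 48 h and 0.05 at 72 h were not called, and the 95% interval of the last ran from -0.30 to 0.40. Leaving out any one array lost the call at 48 h in wild type (adjusted p from 0.133 to 0.173), and so did 3 of the 4 at 72 h, replicates 1a and 1b of 0 h and 1b of 72 h (0.0875, 0.0719 and 0.113), and replicate 1b of the mutant at 72 h (0.0656). Chil3 (gene 12655, chr3:106147554-106167564) has a near-identical neighbour, Chil4, so part of the signal may belong to it.

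Cd68 was brightest in the mutant at 72 h. Its wild type intensity was 1873 and 1957 at 0 h, 1886 at 24 h, 2590 and 2945 at 48 h, and 2762 and 2344 at 72 h. The mutant values were 1047 at 0 h, 2112 and 2048 at 24 h, 2155 and 2531 at 48 h, and 4089 and 3514 at 72 h. The 2 mutant arrays at 72 h exceeded each of the other 12, and the single mutant array at 0 h was the dimmest.

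In the mutant Cd68 rose from 24 to 72 h by 0.84 ± 0.17 on the log2 scale (limma, adjusted p = 0.0182). At 72 h it was above the mutant at 0 h by 1.78 ± 0.20 (adjusted p = 0.000242) and above wild type at 0 h by 0.96 ± 0.17 (adjusted p = 0.00433). The rises of 0.94 at 24 h (adjusted p = 0.00786) and 1.10 at 48 h (adjusted p = 0.00503) against the mutant at 0 h came to 0.12 and 0.28 against wild type at 0 h and were not called there. In wild type the differences from 0 h were 0.51 at 48 h (adjusted p = 0.102) and 0.40 at 72 h (adjusted p = 0.197). The genotype difference of 0.56 ± 0.17 at 72 h was not called (adjusted p = 0.231), whereas the difference in response at 72 h was, at 1.39 ± 0.26 (adjusted p = 0.0368). That call uses the mutant 0 h array and was lost when any one other array compared was left out (adjusted p from 0.0554 to 0.119). The step from 24 to 72 h was lost likewise (adjusted p from 0.0536 to 0.105). A second Cd68 probe set, at 3.29 to 39.8, was too dim to be tested. The gene (12514) lies at chr11:69664213-69666170.

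**Figure D2:**
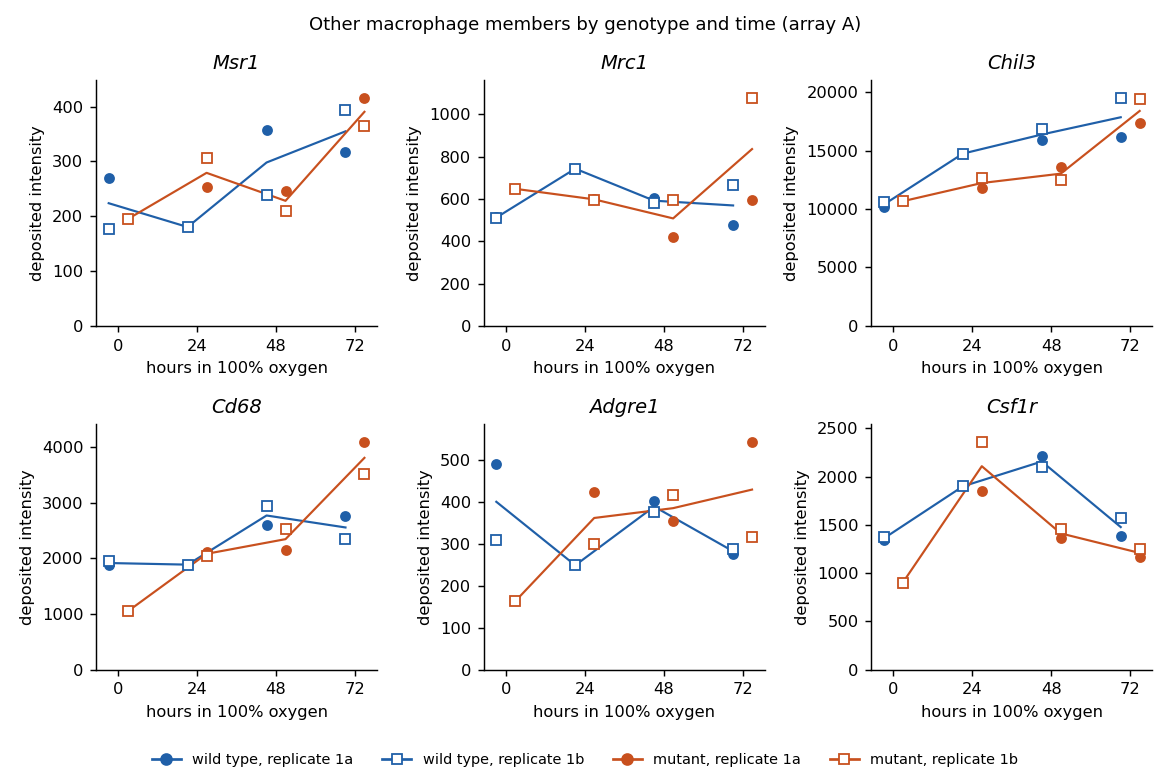
Deposited intensity of Msr1, Mrc1, Chil3, Cd68, Adgre1 and Csf1r (array type A) against hours in 100% oxygen, with points, colours and lines for arrays, genotypes and group means; each panel has its own vertical axis from 0. Chil3 reaches 16200 to 19500 at 72 h in both genotypes, and Cd68 reaches 3514 and 4089 in the mutant at 72 h.

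Csf1r peaked before 72 h on its brighter probe set. The wild type values were 1346 and 1376 at 0 h, 1899 at 24 h, 2215 and 2097 at 48 h, and 1380 and 1575 at 72 h. Among mutant arrays it was 903.5 at 0 h, 1855 and 2360 at 24 h, 1363 and 1461 at 48 h, and 1171 and 1248 at 72 h. The highest wild type arrays were those at 48 h and the highest mutant arrays those at 24 h.

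It was higher in wild type at 48 h by 0.63 ± 0.16 on the log2 scale (limma, adjusted p = 0.0448). In the mutant at 24 h it was higher by 1.15 ± 0.20 against its own 0 h array (adjusted p = 0.00256) and by 0.59 ± 0.16 against wild type at 0 h (adjusted p = 0.045). It then fell in the mutant from 24 to 72 h, by -0.75 ± 0.16 (adjusted p = 0.0271). At 48 h the mutant was lower than wild type by -0.58 ± 0.16, with no overlap, but the difference was not called (adjusted p = 0.234). Any one array left out lost the wild type call (adjusted p from 0.148 to 0.215), and 3 of the 4 lost the fall: mutant 24 h replicate 1b (0.177) and mutant 72 h replicates 1a and 1b (0.112 and 0.095). A dimmer probe set of Csf1r, at 124.8 to 254.7, gave none of these calls: its values were 0.05 for wild type at 48 h, -0.43 for the mutant at 24 h against 0 h and -0.03 for the mutant from 24 to 72 h. The gene (12978) lies at chr18:61105572-61131139.

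Adgre1, by contrast, showed wide spread between replicates. Among wild type arrays its intensity was 490.3 and 309.6 at 0 h, 248.8 at 24 h, 402.5 and 374.5 at 48 h, and 276.2 and 288.1 at 72 h. Intensities in the mutant were 163.2 at 0 h, 422.5 and 300.3 at 24 h, 354.3 and 415.3 at 48 h, and 542.7 and 315.3 at 72 h. Every time under oxygen in the mutant overlapped with untreated wild type.

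The 1 called difference of Adgre1 was the mutant at 72 h against the mutant at 0 h, 1.03 ± 0.31 on the log2 scale (limma, adjusted p = 0.0374). It was 0.71 without replicate 1a at 72 h (adjusted p = 0.169) and 0.07 against wild type at 0 h (adjusted p = 0.902). The genotype difference under oxygen averaged 0.29 ± 0.16 (adjusted p = 0.574). A second probe set of the gene (13733, chr17:57358581-57483529) was too dim to be tested.

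Msr1, the other class A scavenger receptor, gave no called genotype difference. Intensities in wild type were 270.3 and 177.4 at 0 h, 180.4 at 24 h, 357.2 and 239 at 48 h, and 316.8 and 393.1 at 72 h. For the mutant it measured 194.8 at 0 h, 252.8 and 305.7 at 24 h, 246.7 and 209.7 at 48 h, and 415.8 and 365.3 at 72 h. The genotypes overlapped at 0, 48 and 72 h. Averaged over oxygen the genotype difference was 0.10 ± 0.13 on the log2 scale (limma, adjusted p = 0.869), with a 95% interval from -0.20 to 0.40. At 72 h both genotypes lay above the wild type arrays at 0 h, by 0.53 in wild type (adjusted p = 0.18) and 0.65 in the mutant (adjusted p = 0.0772), and neither was called. A second Msr1 probe set, at 80.2 to 202, was too dim to be tested. The gene (20288) lies at chr8:39543232-39642750.

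Mrc1 gave no called difference in any comparison. For wild type it measured 513.1 and 510.7 at 0 h, 742.9 at 24 h, 602.4 and 581.1 at 48 h, and 474.7 and 663.7 at 72 h. In the mutant it was 647.8 at 0 h, 599.3 and 596.7 at 24 h, 419.7 and 596.3 at 48 h, and 594.2 and 1077 at 72 h. The highest value was 1 of the 2 mutant arrays at 72 h, and its partner lay among the rest. Averaged over oxygen the genotype difference was -0.01 ± 0.16 on the log2 scale (limma, adjusted p = 0.994), with a 95% interval from -0.36 to 0.35. The gene (17533) lies at chr2:14229414-14332023.

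**Figure D3:**
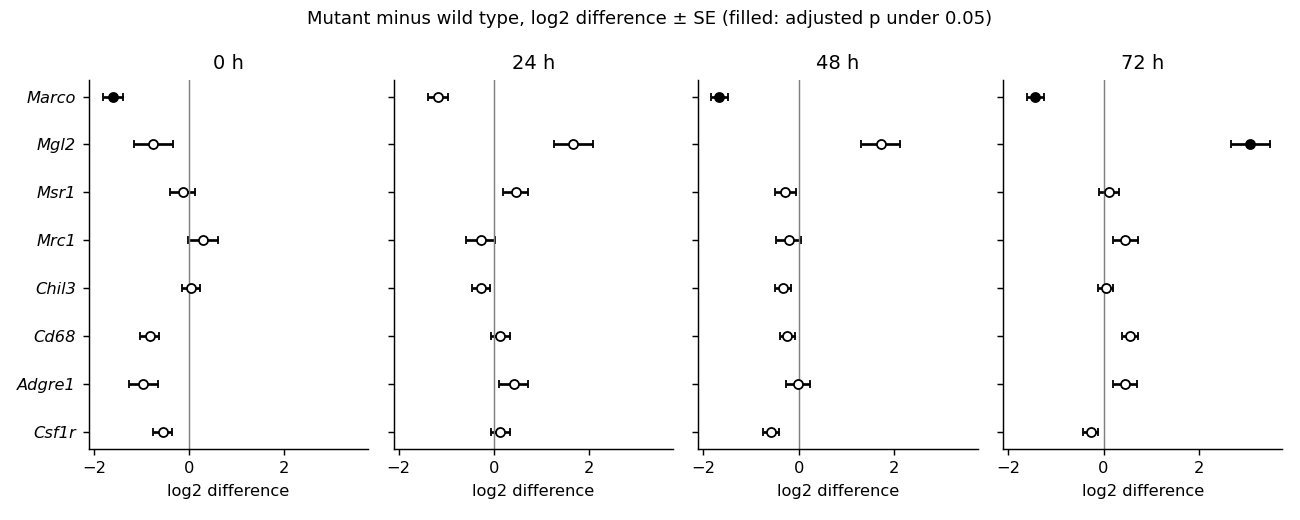
Log2 difference of the mutant minus wild type (horizontal axis, points with SE bars) for the 8 genes at 0, 24, 48 and 72 h; filled points have an adjusted p under 0.05. Marco is called lower at 0, 48 and 72 h and Mgl2 higher at 72 h, at 3.09 ± 0.41.

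Counted over the 8 genes, the genotype differences stayed few. At 0 h 1 gene (Marco) was called lower, where 2.75% of the 26833 tested probe sets were called. At 24 h none of the 8 was called by limma, against 0.157% of probe sets; 2 had an unadjusted p under 0.05, as did 9.76% of all. At 48 h 1 gene (Marco) was lower against 0.376% of probe sets, and at 72 h 1 (Marco) was lower and 1 (Mgl2) higher against 0.82%. The mean over oxygen gave the same 2 calls against 1.25%. These shares are themselves uncertain. With 1 replicate of the groups compared left out on all array types, the probe sets called at 48 h went from 101 to between 30 and 42. At 72 h they went from 220 to between 74 and 105. The median difference of the 8 genes over oxygen was 0.04, beside -0.01 for all probe sets.

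In wild type, 1 gene was called higher (Marco) and 1 lower (Mgl2) at 24 h against 1.72% of probe sets. At 48 h 3 were higher (Marco, Chil3, Csf1r) and 1 lower (Mgl2) against 6.64%, and at 72 h 2 were higher (Marco, Chil3) and 1 lower (Mgl2) against 7.83%. From 24 to 72 h none was called by limma in wild type against 1.5%, with 2 at an unadjusted p under 0.05 and 13.6% of all probe sets.

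In the mutant, 3 genes were called higher than at 0 h at 24 h (Marco, Cd68, Csf1r), 2 at 48 h (Marco, Cd68) and 4 at 72 h (Marco, Chil3, Cd68, Adgre1). The shares of all probe sets called were 24.4%, 17.9% and 21.5%, so these counts stand beside a large background. Against wild type at 0 h the counts were 1 at 24 h (Csf1r), 0 at 48 h and 2 at 72 h (Chil3, Cd68), where 10.2%, 6.45% and 12.9% of probe sets were called. From 24 to 72 h in the mutant 1 gene rose (Cd68) and 1 fell (Csf1r) against 5.05%.

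The response differed between genotypes for none of the 8 genes at 24 h (1.93% of probe sets called) or at 48 h (0.652%), and for 2 at 72 h (Mgl2 and Cd68; 1.36%). By limma at an unadjusted p under 0.05 it differed for 4 genes at 24 h and 3 at 48 h, as it did for 16.8% and 11.9% of all probe sets. The step from 24 to 72 h differed for none (0.112%), with 1 gene and 7.39% of all probe sets at an unadjusted p under 0.05. Comparisons with the same 0 h arrays share those arrays.

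Few other macrophage genes were called between genotypes. Of 29 other macrophage and lysosome genes tested, 1 was higher and 1 lower in the mutant averaged over oxygen, where 1.25% of all probe sets were called, 12 differences were positive, and their median difference was -0.02, beside -0.01 for all probe sets. The higher one was C1qb, a chain of complement C1q made by macrophages, at 0.65 ± 0.09 (limma, adjusted p = 0.00713). The lower one was Ccr2, the chemokine receptor of recruited monocytes, at -0.66 ± 0.12 (adjusted p = 0.0222). At 0 h, with the mutant arrays that stood apart, the median of the list was -0.42, beside -0.04 for all probe sets, and 1 of the 29 was called, C1qb, lower by -0.87 (adjusted p = 0.0349).

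Genes of the members' families were called as follows averaged over oxygen, where 1.25% of all probe sets were called. None of 14 other scavenger receptors was called, with a median of 0.17. Of 9 other C-type lectins 2 were lower, Clec10a and Clec4d, a lectin of myeloid cells, with a median of -0.17. Clec4d lay at 409.3, 788.3 to 1358 and 949.5 to 1063 in wild type at 24, 48 and 72 h, and at 617.6 to 754.7, 135.1 to 140.7 and 140.6 to 211.8 in the mutant. The mutant was thus the higher at 24 h and the lower at 48 and 72 h, as was the summed signal of the neutrophil markers given below. Its mean difference over oxygen was -1.28 ± 0.15 (limma, adjusted p = 0.00188). Of 11 genes of the chitinases and alternative activation, 1 was higher: Alox15, a lipoxygenase of macrophages and eosinophils, at 1.35 ± 0.12 (adjusted p = 0.000442) and a list median of 0.21. Of 14 colony-stimulating factors, their receptors and myeloid transcription factors, 1 was lower: Pparg, a factor needed by alveolar macrophages, at -0.58 ± 0.11 (adjusted p = 0.0266) and a list median of -0.01. For comparison, 12 of 20 NRF2 target genes were lower in the mutant, with a median of -0.66.

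**Figure D4:**
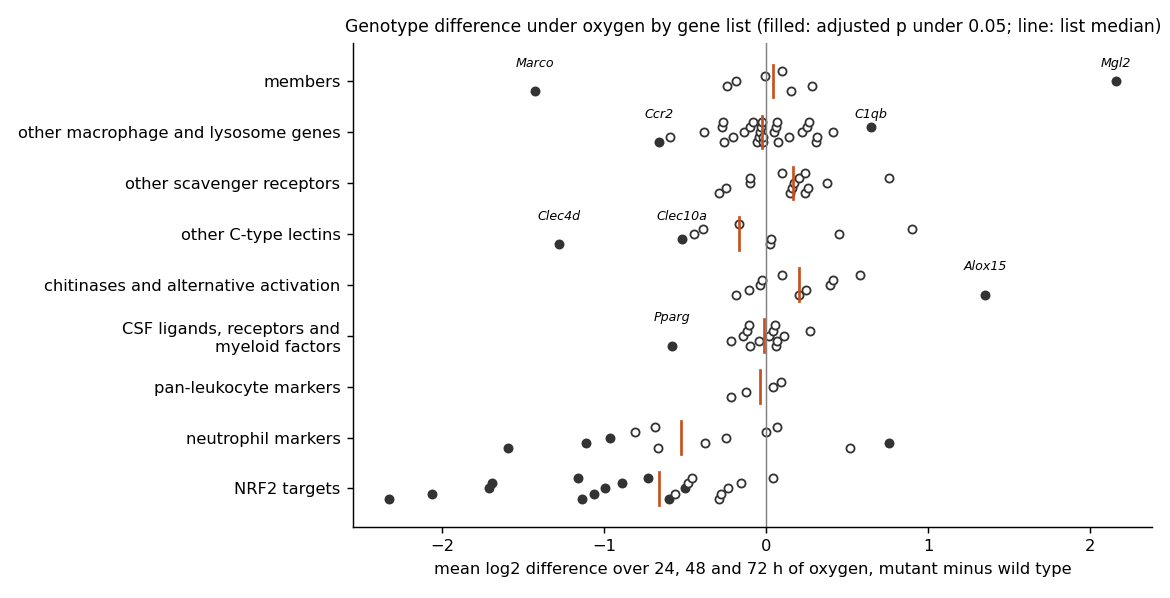
Mean log2 difference over 24, 48 and 72 h of oxygen, mutant minus wild type, with 1 point per gene in each list, filled where the adjusted p is under 0.05; vertical lines mark list medians and called genes are named except among neutrophil markers and NRF2 targets. Marco (-1.43) and Mgl2 (2.16) lie at the opposite ends of the members, whose median is 0.04.

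In wild type at 72 h, 5 of the 29 other macrophage genes rose and none fell, where 7.83% of all probe sets were called (1143 higher and 957 lower), with a median of 0.04 beside -0.06 for all probe sets. Ctsk, a lysosomal protease, rose by 1.57 ± 0.21 (limma, adjusted p = 0.00155), Gpnmb, a membrane glycoprotein, by 1.39 ± 0.18 (adjusted p = 0.000674) and Cd14, the co-receptor for endotoxin, by 1.09 ± 0.15 (adjusted p = 0.00217). In the mutant from 24 to 72 h, where 5.05% of all probe sets were called, 3 of the 29 rose: Ctsk by 2.14, Lgals3, a galectin, by 1.17 and Gpnmb by 0.82. The response at 72 h was higher in the mutant for C1qa, C1qb and C1qc, at 1.34, 1.86 and 1.30, all against the mutant at 0 h that stood apart. In that comparison 1.36% of all probe sets were called.

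Summed signals of cell type markers are given beside these results. The summed signal of 12 neutrophil genes on type A was 13510 to 14040 in wild type at 0 h, 14480 at 24 h, 24100 to 24290 at 48 h and 25620 to 26860 at 72 h. That sum in the mutant was 16620 at 0 h, 27800 to 28350 at 24 h, 12110 to 12240 at 48 h and 11930 to 15650 at 72 h. It was thus high in wild type at 48 and 72 h, and in the mutant at 24 h alone. At 72 h 3 of the 12 were lower in the mutant and none higher, where 0.82% of all probe sets were called (95 higher and 125 lower). The summed signal of the 23 other macrophage genes on type A lay between 72520 and 93810 on all 14 arrays, with the highest on a mutant array at 72 h. On type B the sum of 3 more was 7199 to 8686 in wild type at 0 h and 11540 to 11770 at 72 h. In the mutant it was 5511 to 5529 at 0 h and 12430 to 14560 at 72 h. On type C the sum of 3 others was 61570 to 102500 in wild type at 0 h and 51240 to 58000 at 72 h. There it was 100700 to 130300 in the mutant at 0 h and 51470 to 76220 at 72 h. The summed signal of 3 pan-leukocyte genes on type A was lowest on the mutant 0 h array, at 4089, where Cd68, Adgre1 and Csf1r were lowest too. In wild type this sum was 7570 to 7943 at 0 h and 6225 at 24 h. It was 8886 to 9583 there at 48 h and 8488 to 8649 at 72 h. Under oxygen the mutant gave 10170 to 10580 at 24 h, 6672 to 8382 at 48 h and 5955 to 6155 at 72 h. That of 5 dendritic cell genes was 1746 to 2885 over the arrays, and that of 6 T and B cell genes was 10720 to 11040 in wild type at 0 h and 3294 to 3539 at 72 h, and in the mutant 6885 at 0 h and 2555 to 3132 at 72 h. No listed gene was at 0 on any array. The part of these cells in the results was not tested.

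The genes whose pattern was most like that of Marco over the 8 group means were Lhx1 (r = 0.972), Ube2o (0.958) and Aldh2 (0.956), where the 99th percentile of the 7646 probe sets compared on type A was 0.852. For Mgl2 they were Ldah (0.968), Zdhhc5 (0.933) and Fundc2 (0.923) of 6227 probe sets on type C. For Cd68 they were Carhsp1 (0.98), Uqcrc1 and Rnf19b, and for Csf1r Tmem129 (0.985), Sdc1 and Wdr81. Among the members themselves, Cd68 and Msr1 had an r of 0.80 over the 8 groups and 0.85 without the mutant at 0 h. Marco and Cd68 had 0.58 with that group and -0.03 without it. These correlations share their arrays and describe 8 points.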

How the data were processed

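The values that the authors deposited are intensities on a linear scale, in 1 table for each array type; the sources used here do not give the software or genome build. The authors' scaling was kept. Before log2 was taken, a constant equal to the array type's 25th percentile was added (78.1, 126 and 106 for A, B and C), which understates changes of dim genes, so fold changes hold on that scale. Control probe sets were removed. Probe sets above the 40th percentile of their type on at least 2 arrays were tested: 26833, of which 21868 carried 1 gene symbol, 546 several and 4419 none in the annotation used. Symbols came from the platform annotation, updated through gene identifiers to RefSeq's GRCm38.p6.

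Each array type had its own limma fit (version 3.58.1, R 4.3.3) of 8 group means, in which a lone array is taken to share the spread of the other groups. Two-sided p-values were adjusted by Benjamini-Hochberg over all tested probe sets of the 3 types, and a difference is called at an adjusted p under 0.05. Where a gene had several probe sets, the one with the highest mean log2 value stood for it.

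The members, the gene lists and the comparisons were chosen with earlier results of these data known. Named from the lists were genes past the threshold, by adjusted p, up to 3 a list. Alternatives covered the added value, a floor, the filter, quantile normalization, limma's moderation, the groups fitted, the range of adjustment, the other probe set, a block for the replicate name and each replicate left out. A replicate was left out on all array types at once. Adjusted p-values given for 1 array left out therefore also reflect the loss of the same replicate on the other types. The differences of 1a minus 1b correlated above 0.1 in 7 of 15 pairs of groups on type A. On type B this held for 18 of 28 pairs and on type C for 2 of 28. The median correlations were 0.096, 0.126 and 0.04 on A, B and C. The labels name no pairing, so the replicates were not paired in the main fit.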

Additional observations from a re-analysis of the deposited data

Results flagged for a closer look

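The response of Mgl2 to oxygen differed between genotypes at 72 h by 3.84 on the log2 scale (limma, adjusted p = 0.00825). The response of Cd68 differed at 72 h by 1.39 (limma, adjusted p = 0.0368). Both were singled out because the difference between the genotypes' responses itself passed the test. Each is the genotype difference at 72 h less that at 0 h. For Mgl2 these were 3.09, which was called, and -0.751. For Cd68 they were 0.561, which was not called, and -0.825, the latter from the 1 mutant array at 0 h. Both use the mutant arrays at 0 h, which stood apart from the rest, and the part that the state of those arrays plays was not tested.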

How the results depend on the processing

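The 28 called differences of the members were recomputed under 382 alternatives in all: 311 kept direction and call, 66 lost the call and 5 reversed, 3 of them by the dim Cd68 probe set described below. The mean differences of Marco and Mgl2 under oxygen kept both in every alternative run.

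Counts of the 8 genes called changed as follows, with some smaller changes left out. When a fit held just the groups it compared, they were 0 for the genotype difference at 48 h and at 72 h, 1 for wild type at 24, 48 and 72 h against 0 h, 2 for the mutant at 72 h, 0 for the mutant from 24 to 72 h and 0 for unequal responses at 72 h. With limma's trended and robust moderation they were 2 for the genotype difference at 0 h and at 48 h, and 1 for unequal responses at 24 and at 48 h. Adjusted within each array type they were 2 for the genotype difference at 0 h, 1 at 24 h, 1 for wild type at 24 h and 4 for the mutant at 48 h. With the filter at the 60th percentile, which leaves 6 of the 8 genes, they were 2 for the genotype difference at 0 h, 1 at 24 h and 1 for unequal responses at 24 h. With no filter Csf1r in wild type at 48 h (adjusted p = 0.0537) and Adgre1 in the mutant at 72 h (0.0516) were lost. With values floored they were 1 for wild type at 24 h and 2 at 48 h. Against wild type at 0 h, an alternative chosen after seeing the data, the mutant counts were 1, 0 and 2, and Marco at 48 h turned to -0.026. With single replicates left out the counts were 1 for wild type at 24 h and at 48 h, ran from 0 to 1 for the mutant from 24 to 72 h and from 1 to 2 for unequal responses at 72 h.

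The second Cd68 probe set reads far below the value added before the log2, so its differences are held near 0 and say nothing about Cd68. It turned the values to 0.029 for the genotype difference at 0 h, -0.071 for the mutant at 72 h, -0.093 from 24 to 72 h and -0.073 for its response at 72 h against wild type's. That of Csf1r gave -0.43 and -0.42 for the mutant at 24 and 48 h. With a replicate block, used although not every pair of groups deviated together, the differences of Marco and Mgl2 under oxygen were -1.43 and 2.16, no call was lost, and Chil3 (mutant 24 to 72 h, 0.58) and Csf1r (mutant 48 h, 0.66) were also called. Over all probe sets, counts called ran from 19 to 172 at 48 h and from 27 to 296 at 72 h (genotype difference) over the fits. With 1 replicate left out they fell to as few as 68 (mean under oxygen) and 13 (wild type 24 to 72 h) without wild type 24 h replicate 1b, where type A drops out. The causes were not tested. Without the 1 array of wild type at 24 h or of the mutant at 0 h, type A lacks that group, so no member count exists there. Signals near the filter value limit Msr1, Adgre1 and untreated mutant Marco.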
